A study of Mus musculus with 7 samples.

Results

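The cyclins that start a new cell cycle in G1 phase, the kinases they activate and 3 inhibitors of these kinases were examined in whole liver of mice that lack *Rbpj* in liver epithelium. The members were chosen by name. They are the D-type cyclins *Ccnd1*, *Ccnd2* and *Ccnd3*, the E-type cyclins *Ccne1* and *Ccne2*, the kinases *Cdk4* and *Cdk6*, and the inhibitors *Cdkn1a* (p21), *Cdkn1b* (p27) and *Cdkn2c* (p18). All probes that the array names after these genes were taken, which gave 15 of 55681 probes and 10 of 35715 gene names. Liver was taken from 4 *Rbpj*+/+ mice (*AlfpCre*-negative, *Rbpj* flox/flox) and 3 *Rbpj*-/- mice (*AlfpCre*-positive, *Rbpj* flox/flox). All were untreated C57BL/6J mice at the age of 4 weeks, and the *Rbpj*-/- livers were cholestatic, meaning that bile flow was impaired. The floxed allele was thus shared by both genotypes, and Cre by the *Rbpj*-/- mice alone. AlfpCre acts in cells that descend from hepatoblasts, so that endothelial, stellate and blood cells keep the gene. RNA of each animal was hybridised to 1 single-colour oligonucleotide array.

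In resting liver most hepatocytes are outside the cell cycle. After loss of tissue or injury, growth signals raise cyclin D, which binds CDK4 or CDK6 and starts the phosphorylation of the retinoblastoma protein RB. Phosphorylated RB releases the E2F transcription factors, and these switch on *Ccne1*, *Ccne2* and the genes of DNA replication. Proteins of the INK4 family such as p18 block CDK4 and CDK6, while the CIP/KIP proteins p21 and p27 bind complexes of cyclins with their kinases more broadly. Much of this control acts on protein, for instance through the breakdown of p27 and cyclin D1, and is not seen by an RNA measurement.

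Levels are given as log2 intensity after subtraction of the 75th percentile of the array, so that 0 is the level of that percentile and 1 unit is a doubling. They are comparable between animals for one probe, and not between probes. Probes entered the test if every array of one genotype or the other showed them well above background, and the brightest of them stood for the gene. A Benjamini-Hochberg adjusted p below 0.1 from limma, the false discovery rate of the study's methods, was the threshold. Between 42.4% and 65.7% of spots were well above background on an array. *Rbpj*+/+ replicate 2 and *Rbpj*-/- replicate 1 had the brightest dim spots, with a median intensity of 19.7 and 31.2 against 5.40 to 8.80 on the other arrays. All arrays lay on 1 slide, the *Rbpj*+/+ arrays in one row and the *Rbpj*-/- arrays in the other, so the effects of row and genotype cannot be told apart. The labelled tissue was borne out by its markers, since 9 of 9 hepatocyte markers on the array, among them *Alb*, were well above background in every animal.

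The deleted gene was lower in every *Rbpj*-/- animal on its brighter probe. This probe read 0.97, 0.29, 0.33 and 0.81 in the *Rbpj*+/+ animals and -0.35, -0.78 and -0.48 in the *Rbpj*-/- animals. The difference was -1.13 (SE 0.24, adjusted p = 0.0115 from limma), and over its alternatives the adjusted p ran from 0.00456 to 0.108, the latter without a filter for dim probes. The exons removed from the floxed allele are not given in the sources used here, so this probe may lie outside the deleted part. A dimmer probe, which the design places on chromosome 6 although the brighter one lies on chromosome 5, differed by -1.63 (adjusted p = 0.0723 from limma), with overlap between genotypes.

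Of the 3 D-type cyclins, *Ccnd1* rose clearly in *Rbpj*-/- liver, *Ccnd3* did so on one of its probes, and *Ccnd2* did not pass the test. The D-type cyclins carry the growth signal to CDK4 and CDK6, and *Ccnd1* is the member best known for its induction in regenerating liver. The probe of *Ccnd1* lies at chr7:152116202-152116261 on the minus strand of mm9, the mouse build used in the design of the array. It read 3.39, 2.81, 2.64 and 2.32 in the 4 *Rbpj*+/+ animals and 4.65, 4.75 and 4.23 in the 3 *Rbpj*-/- animals. All *Rbpj*-/- animals lay above all *Rbpj*+/+ animals. The means were 2.79 ± 0.45 (SD, n = 4) and 4.54 ± 0.27 (SD, n = 3), a difference of 1.75 or 3.37-fold (SE 0.28, adjusted p = 0.00397 from limma). Among the 35 ways to split the 7 animals, the exact two-sided permutation test gave p = 0.0286, which is the smallest p that 4 against 3 animals allow. *Ccnd1* passed under every alternative setting and without each animal, with differences of 1.59 to 1.96. In whole liver a gain in cells that express a gene and a gain of RNA per cell cannot be told apart, which holds for every value given here.

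*Ccnd2* read -0.98, -0.71, -0.40 and -0.37 in *Rbpj*+/+ and -0.25, -0.76 and -0.10 in *Rbpj*-/- liver. The genotypes overlapped, and the difference was 0.24 with a 95% interval from -0.30 to 0.79 (adjusted p = 0.486 from limma). A rise of the size measured for *Ccnd1* lies outside this interval. The ratio of *Ccnd1* to *Ccnd2* was higher in *Rbpj*-/- liver by 1.51 on the log2 scale, but an exact two-sided permutation test of the ratio gave p = 0.0857. It is one of 6 ratios between members that were compared after the values had been seen.

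The probes of *Ccnd3* gave different results, and they are printed here because the array's design places them on different chromosomes. Of the 60 bases of each probe the last 30 are given, 5′ to 3′, and capitals mark AATAAA, the signal for cleavage and polyadenylation.
*Ccnd3* probe A_51_P238448, chr17:47736267-47736326, plus strand: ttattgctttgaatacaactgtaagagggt
*Ccnd3* probe A_55_P2041075, chr4:138900307-138900366, minus strand: ctgctgccttAATAAAgatttcagAATAAA
RefSeq places *Ccnd3* on chromosome 17, as the first of these probes does. This probe read 2.10, 1.91, 2.27 and 2.37 in *Rbpj*+/+ and 2.75, 2.88 and 2.97 in *Rbpj*-/- liver. The genotypes did not overlap, and the difference was 0.70 or 1.63-fold (SE 0.19, adjusted p = 0.0301 from limma). Over the alternatives the adjusted p ran from 0.0017 to 0.193, and it missed the threshold only when dim probes were not filtered. The probe placed on chromosome 4 is the brighter one. It read 4.30, 4.11, 4.37 and 4.29 in *Rbpj*+/+ and 4.54, 4.67 and 4.49 in *Rbpj*-/- liver. Here too the genotypes did not overlap, but the difference of 0.30 had a 95% interval from -0.09 to 0.70 (adjusted p = 0.227 from limma). *Ccnd3* as represented by this probe passed the threshold in 5 of 18 alternatives, which are given in the closing section. These include the mean over both probes, which is not a value of this probe alone. Which locus gives the signal of this probe is not settled, and it may not be *Ccnd3*. The ratio of *Ccnd1* to *Ccnd3* was higher in *Rbpj*-/- liver by 1.05 on the chromosome 17 probe, with overlap between genotypes and an exact two-sided permutation p = 0.0857. On the probe placed on chromosome 4 it was higher by 1.45 (exact two-sided permutation p = 0.0286, 0.0429 adjusted over the 6 ratios). This adjustment does not cover the choice of the ratios after the values had been seen.

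**Figure D1:**
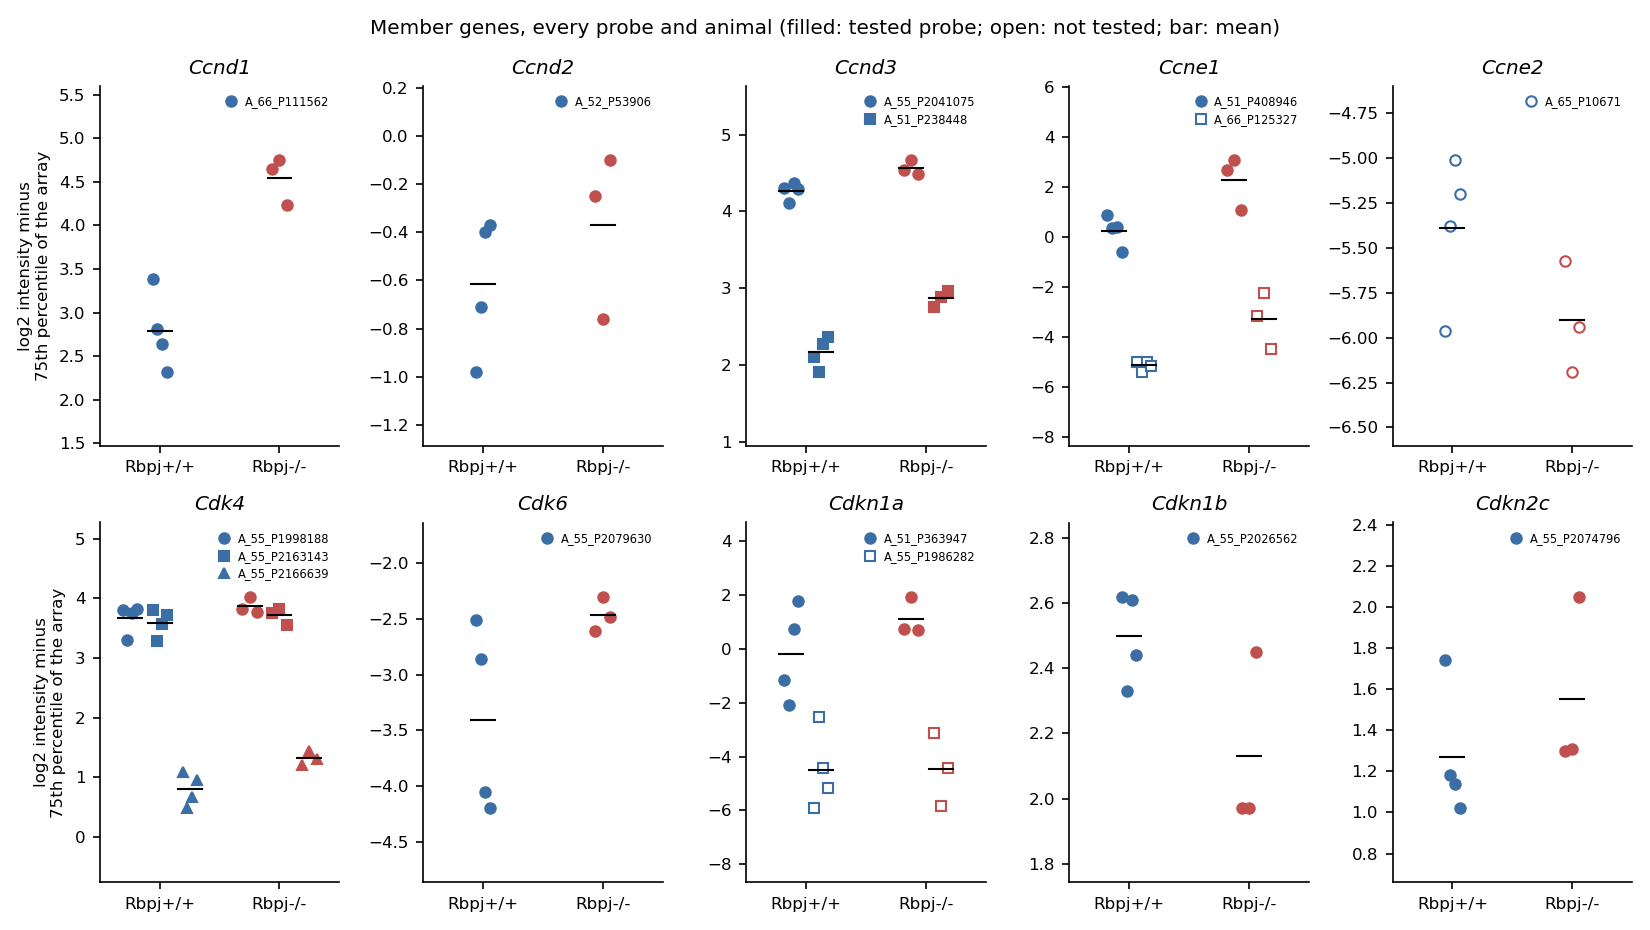
Log2 intensity minus the 75th percentile of the array (y axis, a separate scale for each gene) for every probe of the 10 genes in 4 Rbpj+/+ (blue) and 3 Rbpj-/- (red) animals. Points are animals, bars are means, marker shapes are probes, and open markers are probes that were not tested. *Ccnd1* and the filled *Ccne1* probe show no overlap between genotypes, whereas the 4 Rbpj+/+ values of *Cdkn1a* run from -2.09 to 1.76 and enclose 2 of the 3 Rbpj-/- values.

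Of the E-type cyclins, *Ccne1* rose in *Rbpj*-/- liver, and *Ccne2* could not be measured. Cyclin E activates CDK2 at the passage from G1 to S phase. The first 30 of the 60 bases of each probe are given 5′ to 3′, because their base composition differs.
*Ccne1* probe A_51_P408946, chr7:38883026-38883084, minus strand: gcatgtcctgccttcatgaactcttatttt
*Ccne1* probe A_66_P125327, chr7:38885574-38885633, minus strand: ataaaaacacttttacagcttattgggatt
*Ccne2* probe A_65_P10671, chr4:11131423-11131482, plus strand: ttataaactattgttaagatatgaagtttt
The first *Ccne1* probe read 0.86, 0.36, 0.39 and -0.59 in *Rbpj*+/+ and 2.69, 3.07 and 1.09 in *Rbpj*-/- liver. All *Rbpj*-/- animals were above all *Rbpj*+/+ animals, though replicate 3 by little. The means were 0.26 ± 0.61 (SD, n = 4) and 2.28 ± 1.05 (SD, n = 3), a difference of 2.03 or 4.07-fold (SE 0.49, adjusted p = 0.0208 from limma). *Ccne1* passed under every alternative except without a filter for dim probes, with an adjusted p from 0.00705 to 0.146 and a difference from 1.63 to 2.62, the latter without *Rbpj*-/- replicate 3.

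The second *Ccne1* probe, with 30% G and C, was too dim to be tested. It read -5.00, -5.39, -4.99 and -5.15 in *Rbpj*+/+ liver, where no array was well above background. It read -3.15, -2.25 and -4.48 in *Rbpj*-/- liver, where replicates 1 and 2 were well above background and replicate 3 was not. With the *Rbpj*+/+ values raised to the lowest signal that counted as well above background, their mean was -3.35, beside -3.29 in *Rbpj*-/- liver. The latter mean includes replicate 3, which was not well above background, so no least size of a rise can be given. The order of the animals was the same on both probes in *Rbpj*-/- liver, with replicate 2 highest and replicate 3 lowest. The single *Ccne2* probe holds 15% G and C, which is at percentile 0 of all probes of the array, and was not well above background on any of the 7 arrays. Nothing can be said of *Ccne2*.

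Neither of the kinases that cyclin D activates passed the test on its brightest probe. *Cdk4* has 3 probes on the plus strand of chromosome 10 in mm9. Its brightest probe read 3.80, 3.30, 3.76 and 3.82 in *Rbpj*+/+ and 3.83, 4.03 and 3.78 in *Rbpj*-/- liver. The genotypes overlapped, and the difference was 0.21 with a 95% interval from -0.24 to 0.67 (adjusted p = 0.467 from limma). The next probe gave 0.12 (adjusted p = 0.684). The dimmest *Cdk4* probe lies upstream of the others at chr10:126503162-126503221. It read 1.09, 0.48, 0.67 and 0.95 in *Rbpj*+/+ and 1.20, 1.44 and 1.31 in *Rbpj*-/- liver. The genotypes did not overlap on this probe, and the difference of 0.52 (SE 0.21, adjusted p = 0.103 from limma) fell just short of the threshold, which it passed in 8 of 17 alternatives. The ratio of *Ccnd1* to *Cdk4*, on the brightest probe, was higher in *Rbpj*-/- liver by 1.54 (exact two-sided permutation p = 0.0286, 0.0429 adjusted over the 6 ratios). It too was chosen after the values had been seen, which the adjustment does not cover.

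*Cdk6*, the other partner of the D-type cyclins, was near background. It read -2.51, -2.86, -4.05 and -4.20 in *Rbpj*+/+ liver, with replicates 1 and 2 well above background, and -2.61, -2.30 and -2.48 in *Rbpj*-/- liver, with all 3 well above. The *Rbpj*-/- values lay close together and overlapped with the upper *Rbpj*+/+ values. The difference of 0.94 (95% interval 0.01 to 1.88) had an adjusted p of 0.128 from limma. With normexp background correction it was -0.16, so the data give no direction for *Cdk6*. *Cdk6* was tested only through the *Rbpj*-/- arrays, while the other 11 tested probes were well above background on all 7 arrays.

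**Figure D2:**
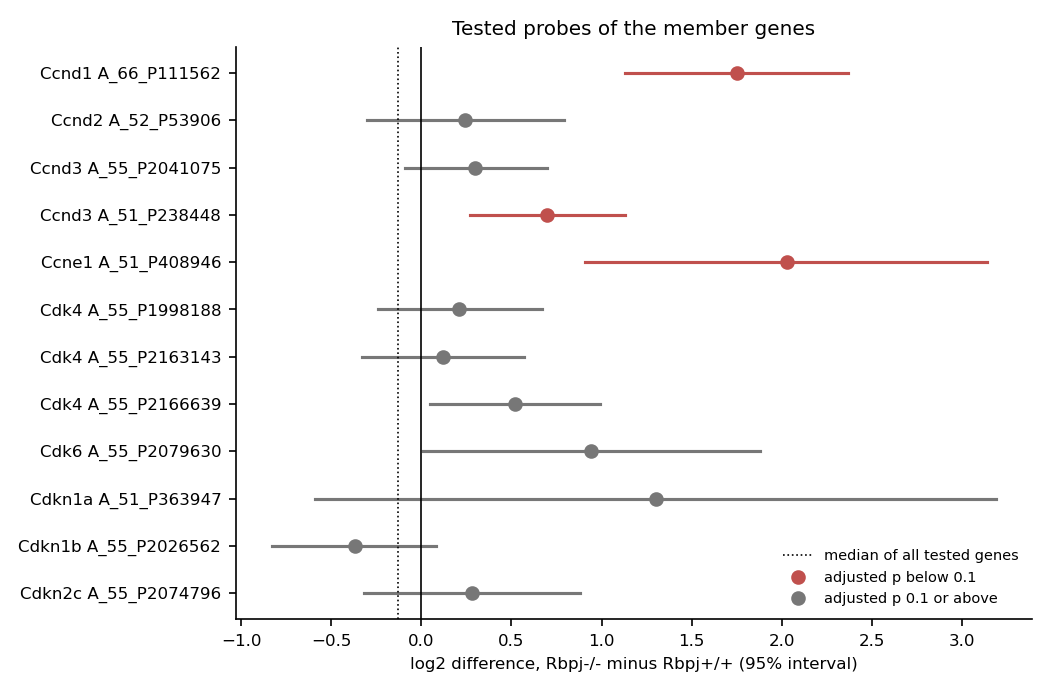
Log2 difference between Rbpj-/- and Rbpj+/+ liver (x axis) with its 95% interval from limma for the 12 tested probes of the 10 genes (y axis); the dotted line is the median of all tested genes. The probes of *Ccnd1*, *Ccne1* and the *Ccnd3* probe A_51_P238448 (red) passed an adjusted p of 0.1, and the interval of *Cdkn1a* from -0.59 to 3.19 is the widest.

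None of the 3 inhibitors passed the test. *Cdkn1a* encodes p21, the inhibitor that p53 induces after DNA damage and other stress. Its main probe lies at chr17:29237377-29237436 on the plus strand of mm9 and is spotted 10 times on the array. The first 30 of its 60 bases are given, since it carries the widest spread of all members.
*Cdkn1a* probe A_51_P363947: ctaagggagctcacaggacactgagcaatg
It read -1.15, -2.09, 0.75 and 1.76 in the *Rbpj*+/+ animals, a 14.4-fold range, and 0.73, 1.94 and 0.69 in the *Rbpj*-/- animals. Replicates 1 and 2 of *Rbpj*+/+ were lower than all other animals, while replicates 3 and 4 lay among the *Rbpj*-/- animals. The difference was 1.30 or 2.46-fold with a 95% interval from -0.59 to 3.19 (adjusted p = 0.283 from limma), and the exact two-sided permutation test gave p = 0.314. Without *Rbpj*+/+ replicate 4 the difference was 1.95 (adjusted p = 0.0871, the lowest over its alternatives, of which the highest was 0.571). The SD of the spots on one array was 0.07 to 0.31, and that between the *Rbpj*+/+ animals 1.75. The spots of an array share one RNA sample, labelling and hybridisation, so they show none of the error of those steps.

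**Figure D3:**
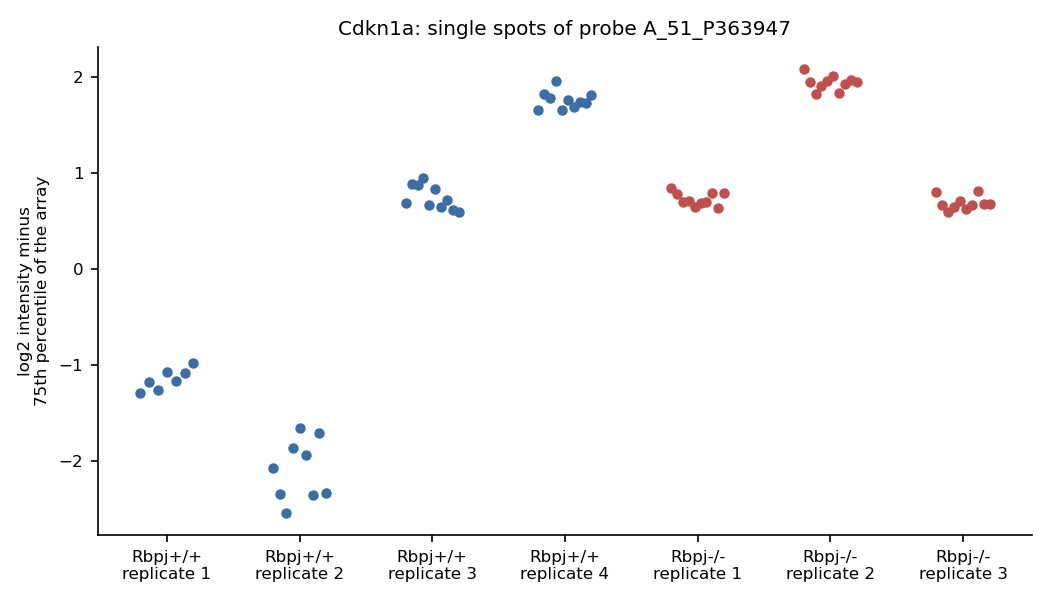
Log2 intensity minus the 75th percentile of the array (y axis) of each spot of the *Cdkn1a* probe on each array (x axis); points are spots, 7 to 10 per array after compromised spots were left out. The spots of an array lie close together, and those of Rbpj+/+ replicates 1 and 2 are all below those of the other 5 animals.

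A second *Cdkn1a* probe, named after another transcript variant, lies upstream at chr17:29227986-29228045. It was well above background only on *Rbpj*+/+ replicate 2 and *Rbpj*-/- replicate 1. These are the arrays with the brightest dim spots, and the part of this in its values was not tested. *Cdkn1b* encodes p27, which holds cells in quiescence. It read 2.62, 2.33, 2.61 and 2.44 in *Rbpj*+/+ and 1.97, 1.97 and 2.45 in *Rbpj*-/- liver. Replicates 1 and 2 of *Rbpj*-/- were below all *Rbpj*+/+ animals and replicate 3 was among them. The difference of -0.37 (95% interval -0.83 to 0.08, adjusted p = 0.208 from limma) did not pass the test, and was negative in every alternative, from -0.53 to -0.09.

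*Cdkn2c* encodes p18, an INK4 inhibitor of CDK4 and CDK6. It read 1.74, 1.18, 1.14 and 1.02 in *Rbpj*+/+ and 1.30, 1.31 and 2.05 in *Rbpj*-/- liver. The genotypes overlapped, and the difference was 0.28 with a 95% interval from -0.32 to 0.88 (adjusted p = 0.461 from limma). Set against p27, *Ccnd1* was higher in *Rbpj*-/- liver by 2.12 and *Ccne1* by 2.40 on the log2 scale of the ratio. Without *Rbpj*-/- replicate 3 the latter was 3.15. Each of these ratios was above all *Rbpj*+/+ values in 3 of 3 *Rbpj*-/- animals (exact two-sided permutation p = 0.0286, 0.0429 adjusted over the 6 ratios). The ratios were chosen after the values had been seen, and the adjustment does not cover that choice, so these p-values describe and do not test.

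By their brightest probes, 2 of the 9 tested members passed the test, or 22.2%, against 34.2% of all 18770 tested genes. A share of 2 in 9 is near the background and gives no result about the members as a group. Both were higher in *Rbpj*-/- liver, as were 14.6% of all tested genes, while 19.6% were lower. Counted by probe, 3 of 12 passed, all higher, against 33.6% of all 24547 tested probes, of which 14.3% were higher and 19.2% lower. No overlap between genotypes was seen in 3 of 9 members and 5 of 12 probes, against 36.6% of all genes and 35.6% of all probes. The median difference of the members was 0.30 beside -0.13 for all tested genes.

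**Figure D4:**
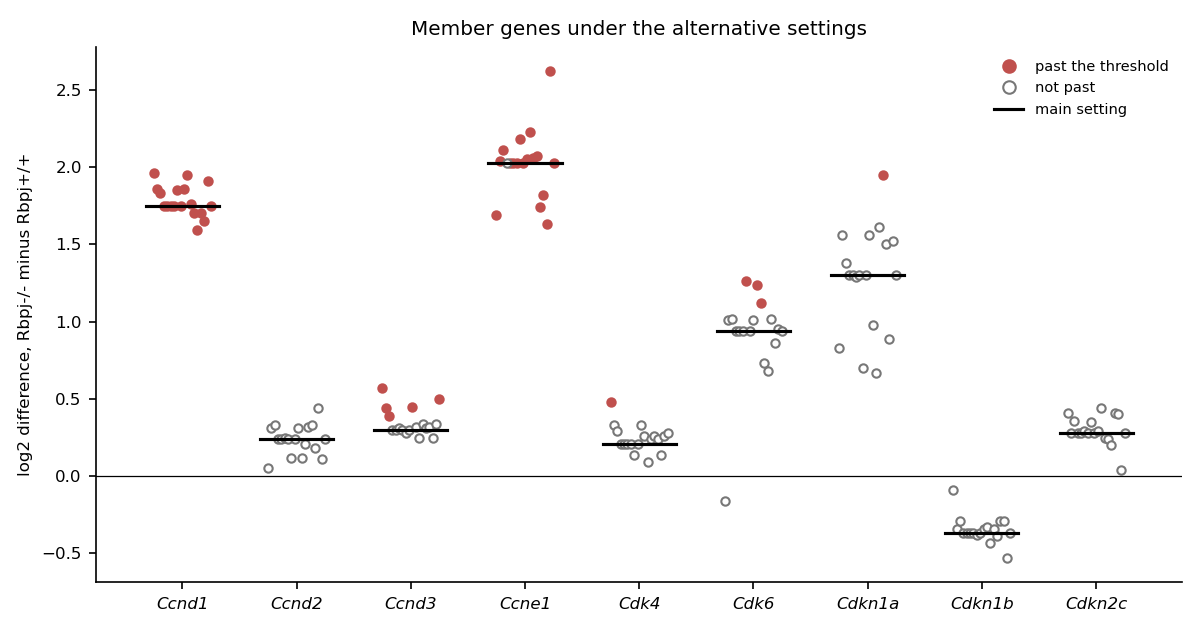
Log2 difference between Rbpj-/- and Rbpj+/+ liver (y axis) of the 9 tested genes (x axis) under each alternative setting, including each animal left out; filled red points passed the threshold, open points did not, and bars mark the values of the report. *Ccnd1* passed under every alternative, *Ccne1* missed in 1, and *Cdk6* is the only gene with a point on the other side of 0.

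The animals of one genotype were not alike. Among the *Rbpj*-/- animals, replicate 3 was lowest in *Ccnd1* (4.23) and *Ccne1* (1.09), and highest in *Cdkn1b* (2.45) and *Cdkn2c* (2.05). In *Cdkn1a* replicate 3 (0.69) was nearly level with replicate 1 (0.73). Replicate 3 was also the lowest in the S phase genes, whose mean level over 20 genes stood above the *Rbpj*+/+ mean by 1.51, 1.91 and 1.27 in replicates 1 to 3. In the mitosis genes it was the highest, with 2.18, 2.48 and 3.23 over 17 genes in the same order. Among the *Rbpj*+/+ animals, replicate 1 was highest in *Ccnd1*, *Ccne1* and *Cdkn2c*, and its mitosis genes stood 0.90 above the mean of its genotype. These are descriptions of single animals with no test.

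**Figure D5:**
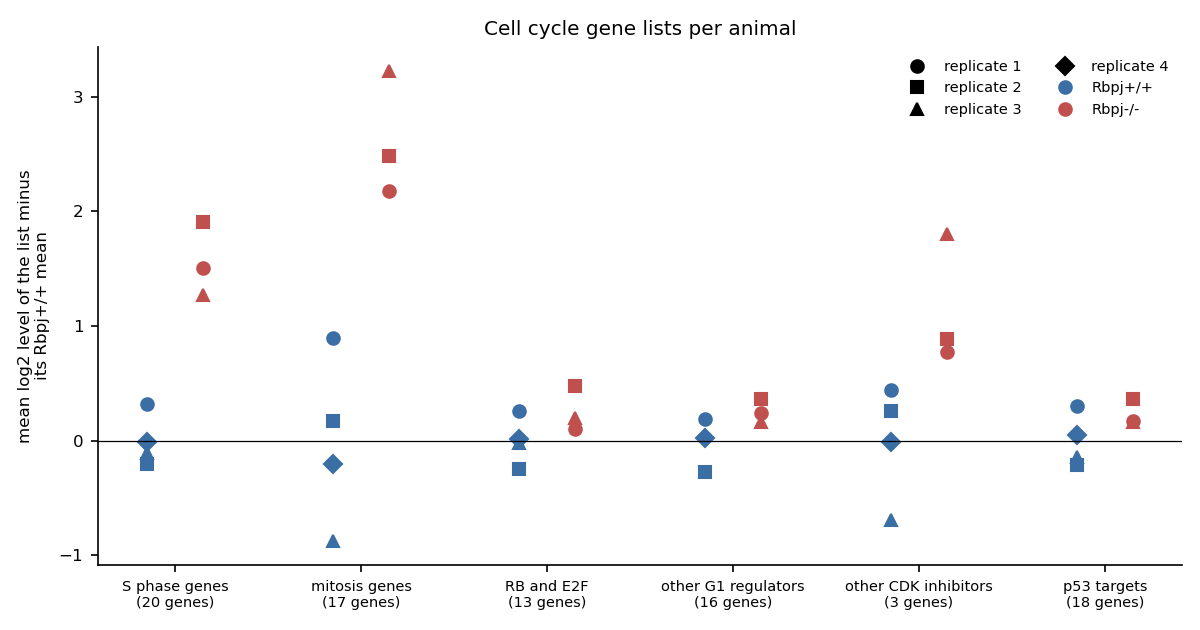
Mean log2 level of each cell cycle gene list minus its mean in Rbpj+/+ liver (y axis) for 4 Rbpj+/+ (blue) and 3 Rbpj-/- (red) animals; marker shapes are replicates, and the x axis gives the lists with the number of tested genes. In Rbpj-/- liver replicate 3 is lowest for the S phase genes (1.27) and highest for the mitosis genes (3.23) and the other CDK inhibitors (1.80).

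The other CDK inhibitors were read beside the members. For this list and the cell cycle and p53 lists that follow, the place of a probe in the design was not checked against the locus of its gene. *Cdkn2d* (p19), the INK4 relative of *Cdkn2c*, rose by 0.95 or 1.93-fold (SE 0.23, adjusted p = 0.0193 from limma). It read 2.0, 1.55, 1.85 and 1.88 in *Rbpj*+/+ and 2.52, 2.60 and 3.19 in *Rbpj*-/- liver, without overlap. *Cdkn3*, which encodes a phosphatase that acts on CDKs and is grouped with the inhibitors by name, rose by 2.25 (SE 0.76, adjusted p = 0.0632 from limma), and was well above background on 3 of 4 *Rbpj*+/+ arrays. *Cdkn1c* (p57) differed by 0.26 (adjusted p = 0.526). *Cdkn2a* and *Cdkn2b* were below the detection limit on some arrays of each genotype and were not tested. In *Rbpj*-/- liver *Cdkn1c*, *Cdkn2d* and *Cdkn3* were highest in replicate 3, as *Cdkn1b* and *Cdkn2c* were, while *Cdkn1a* was not.

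Of the RB and E2F genes, 4 of 13 rose and 1 fell, with a median of 0.05. The share that passed, 38.5%, is near the 34.2% of all tested genes, and of the 12 genes well above background on all 7 arrays 3 rose and 2 fell. *Rbl1*, which encodes the RB relative p107, rose by 2.15 (SE 0.31, adjusted p = 0.00273) and was well above background on 3 of 4 *Rbpj*+/+ arrays. *E2f1* rose by 1.46 (adjusted p = 0.00238) and *E2f2* by 0.95 (adjusted p = 0.0443). *E2f7*, an E2F that represses transcription, fell by 1.14 (adjusted p = 0.0111).

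Of 16 tested genes among the other G1 regulators, 5 rose and 1 fell, with a median of 0.16, and the share that passed (37.5%) is again near that of all genes. *Myc*, a transcription factor that growth signals induce, rose by 1.24 (adjusted p = 0.0861), but *Rbpj*-/- replicate 3 read -0.52, within the *Rbpj*+/+ range. *Cdc25a*, the phosphatase that activates CDK2, rose by 1.10 (adjusted p = 0.0137). *Skp2*, which marks p27 for breakdown, rose by 1.03 (adjusted p = 0.00776), and *Cdk7*, a kinase that activates CDKs, by 0.90 (adjusted p = 0.0838).

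Most tested genes of the later phases rose. In S phase, 16 of 20 genes rose (80%, against 14.6% of all tested genes) and none passed the test as lower. Their median was 1.72, beside -0.13 for all tested genes. Of the 17 that were well above background on all 7 arrays, 14 rose, against 2276 of all 16554 genes detected in this way. *Uhrf1*, which keeps DNA methylation through replication, rose by 3.30 (adjusted p = 0.00145) and *Mcm5*, a subunit of the replicative helicase, by 2.63 (adjusted p = 0.00633). Cyclin A2 (*Ccna2*) rose by 2.51 (adjusted p = 0.0055) and *Cdk1* by 2.47 (adjusted p = 0.00176). Of the 20 mitosis genes 17 could be tested, and 11 of these were well above background on all 7 arrays. All 11 rose, among them *Prc1* by 2.93 (adjusted p = 0.00166) and *Plk1* by 2.90 (adjusted p = 0.00309). *Top2a*, at 3.61, and *Bub1*, at 3.08, had larger differences, but each was well above background on 1 of 4 *Rbpj*+/+ arrays.

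*Cdkn1a* belongs to the p53 targets. Of 18 other tested genes of this kind 3 rose and 4 fell, with a median of -0.11, and the share that passed (38.9%) is near the 34.2% of all tested genes. At a threshold of 0.05, and without *Rbpj*+/+ replicate 1, *Rbpj*+/+ replicate 4 or *Rbpj*-/- replicate 1, 0 of them passed as lower. *Btg2*, an antiproliferative gene, rose by 2.24 (adjusted p = 0.0213). *Bbc3*, which encodes the cell death factor PUMA, fell by 0.94 (adjusted p = 0.0621). *Pmaip1*, at 2.51, and *Gtse1*, at 1.93, also passed, with 1 of 4 *Rbpj*+/+ arrays well above background. *Btg2* read -0.49, -1.26, 0.37 and 0.76 in *Rbpj*+/+ and 2.27, 2.92 and 1.08 in *Rbpj*-/- liver. Within each genotype the animals stood in the same order for *Btg2* as for *Cdkn1a*, which was seen after the values were known and has no test. For *Cdkn1a* the order of *Rbpj*-/- replicates 1 and 3 rests on 0.73 against 0.69, with an SD of the spots of 0.07 on each array. The mean of all tested p53 targets did not follow that order, with 0.30, -0.21, -0.14 and 0.05 in the *Rbpj*+/+ animals relative to their mean.

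Markers of several cell types moved with genotype, and their part in the values of the members was not tested. Whether the design places the probe of each marker at the locus of its gene was not checked. Among all tested genes 14.6% rose and 19.6% fell, or 34.2% in either direction. Of 10 macrophage markers 8 rose, and their mean level was 1.44 to 2.03 in *Rbpj*+/+ and 3.57 to 3.93 in *Rbpj*-/- liver. Of 10 stellate cell and fibroblast markers 8 rose, with mean levels of 1.83 to 2.14 and 2.81 to 3.50. Of 9 hepatocyte markers 6 fell, with mean levels of 7.97 to 8.51 and 7.65 to 7.94. The cholangiocyte markers, of cells in which AlfpCre is active as well, had 3 of 7 tested genes higher and overlapped between genotypes in their mean level (-1.41 to -0.76 and -1.0 to -0.06). Endothelial markers had 5 of 9 higher and 1 lower, neutrophil markers 3 of 8 higher and 2 lower, and erythroid markers 1 of 8 in each direction. B cell markers had 4 of 5 lower, and T and NK cell markers 2 of 5. The shares that passed among cholangiocyte (42.9%), T and NK cell (40%) and erythroid markers (25%) are near that of all genes and give no result.

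RefSeq promoter windows (GRCm38.p6, from 250 bases before to 50 bases after a gene's start) were found for 7 of the 10 members, 10 windows in all. *Ccnd1*, *Ccnd2* and *Ccne2* were not in the table used here. On either strand, the E2F motifs TTTGGCGC, TTTCCCGC and TTTCGCGC were in none of the 10 windows and in 1.84% of all 32851. The RBPJ motif TGGGAA was in 2 of the 10, of *Cdk4* and *Cdkn1a*, and in 25.6% of all. The TEAD motif GGAATG was in 1, of *Ccnd3*, and in 14.7% of all. The paired p53 core, which is CATG, 6 bases of any kind and CATG again, and which was searched after the windows had been seen, was in 1 window, of *Cdkn1a*, and in 0.712% of all. The stretches of 30 bases around the matches in *Cdkn1a*, the member with the widest spread, are given 5′ to 3′ on the plus strand with the match in capitals. The first begins at position -48 from the start of one window's transcript, and the second, the reverse complement of TGGGAA, at -117 from that of the other.
*Cdkn1a*, chr17:29090923-29090952, p53 core: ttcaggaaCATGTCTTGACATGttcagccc
*Cdkn1a*, chr17:29093640-29093669, RBPJ motif: cgcgggcttagaTTCCCAgaggggagggcg
A match, or the lack of one, describes the letters of the window and says nothing of binding in these livers. Other variants of the motifs were not searched.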

How the data were processed

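Total RNA of whole liver was labelled with Cy3 and hybridised to a mouse 8x60K array, 1 array per animal. The deposited intensity values are background-subtracted signals of single spots, made by the authors with Feature Extraction 10.7.3.1 and not normalized between arrays. The deposited log2 values of the series matrix correlate at r = 1 on every array with quantile-normalized, median-centred log2 intensities, and were used as an alternative. Spots that carried a mark for non-uniformity or for a population outlier were left out (146 probe values missing), and no spot was saturated. The remaining log2 values of a probe were averaged, and the array's 75th percentile was subtracted. Groups were taken from the genotype labels. The comparison of genotypes used limma 3.58.1 (R 4.3.3), adjusted over 24547 tested probes, and for single values by an exact permutation test. The number of arrays limits the precision. The steps were tested on simulated data. Exon annotation in mm9 was not used here.

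The members, lists, tests and alternatives were chosen with earlier results of these data known. Named genes are *Rbpj*, all members, all other CDK inhibitors and, in each other list, up to 4 genes past the threshold with the largest differences. *Alb* was named outside this rule. The alternatives for signal were normexp background correction (offset 50), quantile normalization, a percentile taken over detected probes, compromised spots retained, and the series matrix. Those for testing were dim probes left unfiltered, detection required on all 7 arrays, a variance trend or array weights in limma, a threshold of 0.05, gene means over probes, and each animal left out. Tables and figures were made with Python 3.11.15, pandas 2.3.3 and matplotlib 3.10.9.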

Additional observations from a re-analysis of the deposited data

Results flagged for a closer look

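In the brightest *Cdk4* probe, A_55_P1998188, *Rbpj*+/+ replicate 2 was far below the other animals of its genotype (3.30 against 3.76 to 3.82). Its gap to the nearest animal was 0.88 of the range of the group. Of the 15 probes of the members it was the only one to stand out in this way, and chance alone gives about 1 such group in 20.

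The *Ccne1* probe A_66_P125327 entered no comparison, because some arrays of each genotype did not detect it. Its signal cleared the background on 2 of 3 *Rbpj*-/- arrays and on 0 of 4 *Rbpj*+/+ arrays.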

How the results depend on the processing

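*Ccnd1* kept its call in all 18 alternatives, and *Ccnd2*, *Cdkn1b* and *Cdkn2c* passed in none. Without a filter for dim probes, both the limma fit and the adjustment were made anew over all 55681 probes. In this setting 1642 of the genes and 2038 of the probes passed against 6412 and 8241, and 1 member and 1 member probe. *Rbpj* (-1.13, adjusted p = 0.108) and *Ccne1* (2.03, adjusted p = 0.146) were then lost, as was the *Ccnd3* probe A_51_P238448. Other CDK inhibitors then numbered 0 (2 in the report), RB and E2F genes 2 (5), other G1 regulators 1 (6) and p53 targets 1 (7). The brightest *Ccnd3* probe passed with normexp (0.57), quantile normalization (0.44), the percentile over detected probes (0.39) and the series matrix (0.45). The mean of both *Ccnd3* probes also passed (0.50). With normexp *Cdk4* passed (0.48) and *Cdk6* turned (-0.16), 4 members and 6 member probes passed, and p53 targets fell to 3. Member probes numbered 5 with quantile normalization, the percentile over detected probes, array weights and the series matrix. *Cdk6* passed with array weights (1.26). Detection on all 7 arrays left 1 other CDK inhibitor and 11 mitosis genes, and a threshold of 0.05 left 1 other CDK inhibitor and 3 p53 targets. With single animals left out, the genes passing ranged from 3721 (without *Rbpj*-/- replicate 2; 4272 without *Rbpj*+/+ replicate 3) to 7108 and the probes from 4673 to 9019. Members ranged from 2 to 3, member probes from 3 to 5, other CDK inhibitors from 1 to 2, RB and E2F genes from 3 to 6, other G1 regulators from 3 to 6, p53 targets from 3 to 6 and mitosis genes from 16 to 17. Several counts fell without *Rbpj*-/- replicate 2 (1 other CDK inhibitor, 3 RB and E2F genes, 3 other G1 regulators, 4 p53 targets), *Rbpj*-/- replicate 1 (1 other CDK inhibitor, 3 other G1 regulators, 3 p53 targets) and *Rbpj*+/+ replicate 4 (1 other CDK inhibitor, 3 p53 targets). Without *Rbpj*-/- replicate 3, 4 p53 targets passed, without *Rbpj*+/+ replicate 3, 3 RB and E2F genes, and without *Rbpj*+/+ replicate 1, 5 member probes. In the same way the difference of *Cdk6* ranged from 0.68 to 1.24 and of *Cdkn1a* from 0.67 to 1.95. *Cdk6* passed without *Rbpj*+/+ replicate 1 (1.24) and without replicate 2 (1.12), and *Cdkn1a* without replicate 4 (1.95). The cause of these moves was not tested. Of the genes that passed, 2741 were higher and 3671 lower, but 3116 and 2851 with quantile normalization, 3396 and 3244 with the percentile over detected probes, and 3099 and 2807 with the series matrix. Each scaling moved the median of all genes by at most 0.09. The 6 ratios between members kept their direction in all 12 alternatives, added after the data were seen, and in the 5 that kept every animal the exact p stayed on the same side of 0.05. The ratio of *Ccne1* to *Cdkn1b* ranged from 1.78 (normexp) to 3.15 (without *Rbpj*-/- replicate 3). No paired analysis was made, because the labels name separate animals and give no pairing between the genotypes. Signals near background limit *Ccne2*, *Cdk6* and the second probes of *Ccne1* and *Cdkn1a*.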
